A study of Zea mays with 6 samples.

Results

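In maize, 98 genes had a higher level in drought leaf than in control leaf and, at the same time, a lower level in the root library labelled drought than in the root library labelled control. They were chosen by their FPKM values. FPKM counts the fragments sequenced from a transcript, divided by its length and by the total of fragments mapped in the library. For each tissue, L is the log2 of (drought FPKM + 1) over (control FPKM + 1). A member had L of at least 1 in leaf, at most -1 in root and above -1 in stem, an FPKM above 0 in all leaf and root libraries, and at least 10 FPKM in the higher library of leaf and of root. Of 109715 gene identifiers, 10828 met these limits on level in leaf and root, and 98 of them met the whole rule, which is 0.905% of those genes.

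The libraries came from the leaf, the stem and the root of ZD619, a maize variety grown widely in southwest China, labelled wild type and at the stage of 2 to 3 leaves. In the methods, that is the stage at which the plants in each pot were reduced to those kept. Watering of drought plants was withheld from 3 weeks of age, for about 1 week, until the soil reached a low water content. That content was then held for 2 to 3 days, and control plants were kept well watered. The stage at sampling may therefore differ from the label, and the paper pictures ZD619 under both treatments at a later leaf stage. All plants were grown in pots in a greenhouse, and the methods state that RNA of each tissue came from pooled plants. The deposited data hold 1 library for drought leaf, control leaf, drought stem, control stem, drought root and control root, 6 libraries in all. The methods describe replicated treatments but not how the replicates relate to the libraries. No condition has a second library here, no value below has an error between replicates, and no difference below was tested.

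Abscisic acid (ABA) is the hormone by which plants signal water shortage. In the textbook pathway, worked out mainly in Arabidopsis, ABA binds receptors of the PYR/PYL family, the receptors then inhibit protein phosphatases of type 2C (PP2C), and protein kinases that the phosphatases had kept inactive switch on transcription factors of the bZIP class. Dehydrins and other late embryogenesis abundant (LEA) proteins are among the best known products of this pathway. They protect membranes and proteins in drying cells, and the maize dehydrin rab17 takes its name from its response to ABA.

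The tissue labels were checked first. Photosystem and light-harvesting genes named in the reference, 12 in number, summed to 3214 FPKM in drought leaf and 9268 FPKM in control leaf, to 20728 FPKM in drought stem and 22004 FPKM in control stem, and to 9.04 FPKM in drought root and 16.5 FPKM in control root. Of the C4 and Rubisco genes, 4 summed to 6147 FPKM in drought leaf and 15166 FPKM in control leaf, to 5557 FPKM in drought stem and 6160 FPKM in control stem, and to 8.53 FPKM in drought root and 10.4 FPKM in control root. Both sets were low in root, and stem exceeded leaf in the photosystem set but not in the C4 and Rubisco set. The meristem gene kn1 was listed at 0 in all 6 libraries, both stem libraries included. The root gene rth3 was at 57.2 FPKM in drought root and 13.0 FPKM in control root, and at 10.2 FPKM in drought leaf and 1.25 FPKM in control leaf. FPKM summed to 703757 in drought leaf and 816752 in control leaf, to 723043 in drought stem and 684951 in control stem, and to 908668 in drought root and 544251 in control root.

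Most genes with dehydration names stood lower in the root library labelled drought, and RAB15 and dehydrin7, described below, stood higher in it. Among 8 genes with a dehydrin, LEA or related dehydration name in the reference, a set gathered after their values were seen, 6 had L of at most -1 in root and 1 had L of at least 1, where L is the ratio defined above. Among all genes above 0 in some library the shares were 5.34% and 12.8%. Of the 4 that met the limits on level, 2 had root L of at most -1 and 1 had root L of at least 1. The shares of all such genes were 6.04% and 22.5%. Those 2 are the members rab17 and dhn2, whose low root L was required by the rule. In the set, EMB5 (GRMZM2G162659) was at 0.0863 FPKM in drought root and 13.2 FPKM in control root, and was listed at 0 in the leaf and stem libraries. The gene mlg3 (GRMZM2G096475) was at 0.0725 FPKM in drought root and 64.5 FPKM in control root. Lea14A (GRMZM2G050607) was at 5.13 FPKM in drought root and 33.1 FPKM in control root. For that reason the root libraries are called drought-labelled and control-labelled root below, and every direction given for root rests on those labels. Whether the root labels are right cannot be told from these libraries and was not tested.

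In leaf, 832 of the 10828 genes that met the limits on level had L of at least 1, which is 7.68%, and 5.25% had L of at most -1. In root 654 had L of at most -1, which is 6.04%. Both conditions held for 123 genes (1.14%). The stem condition removed 25 of them and left the 98 members. The opposite pattern, L of at most -1 in leaf and at least 1 in root, was met by 204 genes (1.88%), L of at least 1 in both tissues by 324 genes (2.99%), and L of at most -1 in both by 46 genes (0.425%). Since the rule chose the members on these ratios, the counts describe the choice. The median L of the 10828 genes was -0.036 in leaf, 0.050 in stem and 0.37 in root, so the typical gene in root had a higher FPKM in the drought-labelled library. Relative to these medians, the median member stood 1.80 higher in leaf and 2.23 lower in root (a difference of -2.23).

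**Figure D1:**
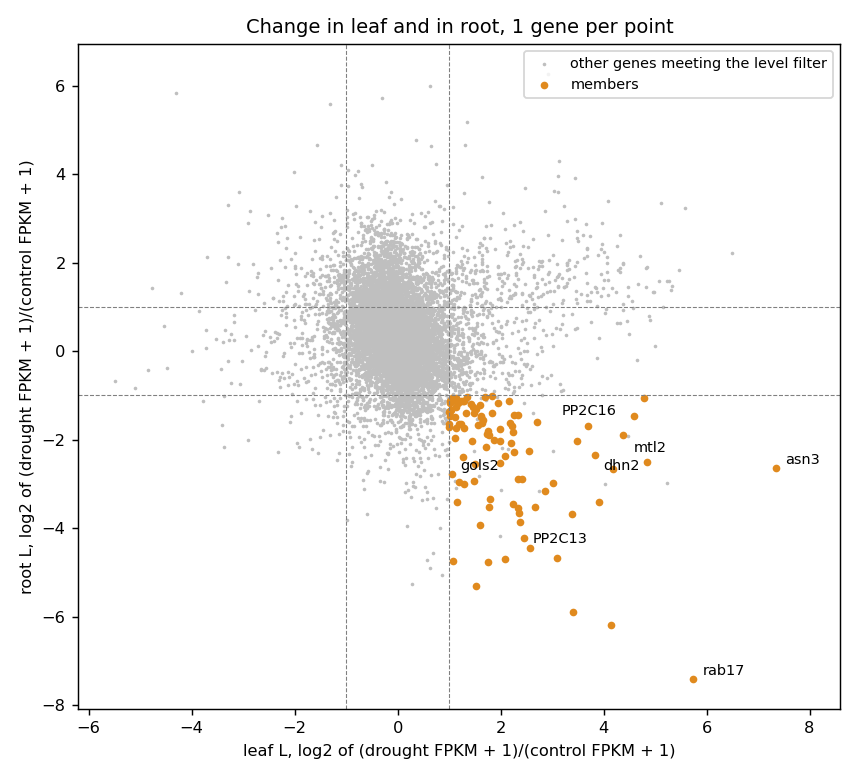
Log2 ratio (L) of drought over control in leaf (horizontal axis) and in root (vertical axis) for the 10828 genes that met the limits on level, with 1 gene per point and dashed lines at L of -1 and 1. The 98 members (orange) fill the lower right by the rule, with asn3 farthest to the right at 7.35 and rab17 lowest at -7.40.

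Among the members, leaf L ran between 1.002 and 7.35 with a median of 1.76, and root L between -7.40 and -1.01 with a median of -1.86. Without the pseudocount, the median member was 3.68-fold higher in drought leaf than in control leaf, and 4.22-fold higher in control-labelled root than in drought-labelled root. In leaf 38 members reached L of at least 2, in root 45 reached L of at most -2, and 27 did both. The root change was larger in size than the leaf change for 57 members and smaller for 41. Spearman's rho between leaf L and root L was -0.45 over the 98 members, which were cut at both thresholds, and -0.19 over the 10828 genes. All of these values share the same 4 libraries.

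In drought leaf the members ran between 10.4 and 1119 FPKM with a median of 40.3 FPKM, and in control leaf between 0.118 and 249.6 FPKM with a median of 9.10 FPKM. In drought-labelled root they ran between 0.133 and 303 FPKM with a median of 8.31 FPKM, and in control-labelled root between 10.2 and 964 FPKM with a median of 39.0 FPKM. All members together summed to 7381 FPKM in drought leaf and 1910 FPKM in control leaf, which is 1.05% and 0.234% of all FPKM in those libraries. They summed to 1894 FPKM in drought-labelled root and 8760 FPKM in control-labelled root, or 0.208% and 1.61%. In bulk tissue, fewer cells of a type and less RNA per cell cannot be told apart.

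Control FPKM was higher in root than in leaf for 94 members, drought FPKM was higher in leaf than in root for 93, and both held for 89 of 98 (90.8%). Over the 10828 genes the shares were 44.4% for control, 41.9% for drought and 14.2% for both. These are the leaf and root values that chose the members, so the counts describe the choice and nothing is read from them. The leaf and root tables were deposited separately and taken as normalized separately, so levels set side by side across them are approximate.

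The largest root change belonged to a dehydrin. The dehydrin rab17 (GRMZM2G079440, also named dhn1 in the reference) was at 184 FPKM in drought leaf and 2.46 FPKM in control leaf, a 75.0-fold higher level in drought. In root it was at 3.03 FPKM in the drought-labelled library and 678 FPKM in the control-labelled library, with L of -7.40, the lowest root value of all members. In stem it was at 0.188 FPKM in drought and 0.370 FPKM in control, so the stem libraries held almost none. Its FPKM was higher in control-labelled root than in drought leaf, a comparison across tables that were taken as normalized separately.

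The second dehydrin, dhn2 (GRMZM2G373522), was at 68.1 FPKM in drought leaf and 3.87 FPKM in control leaf, with leaf L of 3.83. In root it was at 158 FPKM in the drought-labelled library and 811 FPKM in the control-labelled library, with L of -2.36. In stem it was at 9.14 FPKM in drought and 6.49 FPKM in control. Unlike rab17, it kept a higher level in drought-labelled root than in drought leaf. Together rab17 and dhn2 made up 3.42% of the members' summed FPKM in drought leaf and 0.331% in control leaf, and 8.49% in drought-labelled root and 17.0% in control-labelled root.

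Other genes with dehydrin or LEA names fell outside the rule for different reasons. RAB15 (GRMZM2G165901) was at 6421 FPKM in drought leaf and 2322 FPKM in control leaf, and at 3301 FPKM in drought-labelled root and 1787 FPKM in control-labelled root, so it stood higher under the drought label in both. The gene dehydrin7 (GRMZM2G002786) was at 23.5 FPKM in drought leaf and 30.6 FPKM in control leaf, and at 108 FPKM in drought-labelled root and 46.7 FPKM in control-labelled root, the only one of the 8 with root L of at least 1, which it no longer reached after centring or rescaling. Lea14A had a root L of -2.48 but a leaf L of 0.84, at 3.12 FPKM in drought leaf and 1.30 FPKM in control leaf. The direction was therefore not common to all dehydration genes.

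Type 2C protein phosphatases were the best represented family with names. They remove phosphate from serine and threonine, and some of them are the phosphatases that ABA receptors inhibit. The reference names 25 identifiers as PP2C, a set gathered after their values were seen, and 24 of them had an FPKM above 0 in some library. Of the 14 that met the limits on level, 5 were members, beside the 0.905% that the rule took of all such genes. Another 3 met the conditions on L and missed only the limits on level, so that 8 of 24 had leaf L of at least 1 with root L of at most -1, as did 0.718% of all genes above 0 in some library. Just 1 other gene of the family, PP2C17, had leaf L of at least 1.

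PP2C16 (GRMZM2G082487) was at 33.1 FPKM in drought leaf and 1.62 FPKM in control leaf, with L of 3.70, the largest leaf value in the family. Root levels were 2.71 FPKM in the drought-labelled library and 10.9 FPKM in the control-labelled library. Its stem levels were 0.906 FPKM in drought and 0.470 FPKM in control. PP2C16 was thus a gene of low level in every library except drought leaf and control-labelled root.

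PP2C13 (GRMZM2G159811) had the largest root change of the phosphatases, at 1.35 FPKM in drought-labelled root and 42.5 FPKM in control-labelled root, with L of -4.21. In leaf it was at 28.2 FPKM in drought and 4.32 FPKM in control, and in stem at 0.223 FPKM in drought and 0.688 FPKM in control. PP2C11 (GRMZM2G308615) had smaller differences in both tissues. It was at 22.9 FPKM in drought leaf and 8.85 FPKM in control leaf, at 3.06 FPKM in drought-labelled root and 20.4 FPKM in control-labelled root, and at 0.930 FPKM in drought stem and 0.792 FPKM in control stem.

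PP2C4 (GRMZM2G177386) was the most abundant of the 5, at 119 FPKM in drought leaf and 34.4 FPKM in control leaf, and at 26.2 FPKM in drought-labelled root and 99.8 FPKM in control-labelled root. PP2C3 (GRMZM2G059453) was at 66.3 FPKM in drought leaf and 30.2 FPKM in control leaf, and at 10.2 FPKM in drought-labelled root and 42.7 FPKM in control-labelled root. In stem, PP2C4 was at 13.2 FPKM in drought and 15.1 FPKM in control, and PP2C3 at 19.2 FPKM in drought and 13.5 FPKM in control. These 2 were the phosphatases among the members with clear stem levels, and the stem ratio stayed under the fold used in both.

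Of the 3 that missed the limits on level, PP2C12 (GRMZM5G818101) was at 22.4 FPKM in drought leaf and 4.27 FPKM in control leaf, and at 0.180 FPKM in drought-labelled root and 9.39 FPKM in control-labelled root. PP2C8 (GRMZM2G019819) was at 1.62 FPKM in drought leaf and 0.215 FPKM in control leaf, and at 0.0546 FPKM in drought-labelled root and 10.2 FPKM in control-labelled root. PP2C15 (GRMZM2G300125) was at 2.34 FPKM in drought leaf and 0.0380 FPKM in control leaf, and at 0.124 FPKM in drought-labelled root and 5.98 FPKM in control-labelled root. The counting error of values this low is unknown.

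The rest of the family did not share the pattern as a whole. With L under 1 in size in leaf and in root, 14 of the 24 genes lay inside both thresholds. PP2C18 had L of -0.37 in leaf and 1.03 in root, and PP2C17 had L of 1.12 in leaf and 1.42 in root. PP2C19, PP2C23 and PP2C25 had stem L between -2.26 and -1.58 and root L between -0.12 and 0.40. After the tissue medians were subtracted, the number of PP2C genes with leaf L of at least 1 and root L of at most -1 was again 8, and with every library rescaled to the same total it was 9.

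ABA receptor genes showed another pattern. The reference names 11 identifiers as PYL, of which 9 had an FPKM above 0. None of the 9 had leaf L of at least 1 in size, and 7 had root L of at least 1, beside 12.8% of the genes above 0 in some library. Of the 3 receptors that met the limits on level, 1 had root L of at least 1, beside 22.5% of such genes. PYL7 (GRMZM2G144224) was at 106 FPKM in drought-labelled root and 4.78 FPKM in control-labelled root, and at 0.890 FPKM in drought leaf and 2.68 FPKM in control leaf. PYL5 (GRMZM2G057959) was at 14.5 FPKM in drought-labelled root and 0.279 FPKM in control-labelled root. Root L was above 0 for all 9 receptors, and for 11 of the 24 genes of the whole PP2C set. The median root L of the 10828 genes was 0.37, so most of those were above 0 as well. With every library rescaled to the same total, 6 of the 9 receptors had root L of at least 1, and root L was above 0 for 8 receptors and for 3 PP2C genes. The median root L of the 10828 genes was then -0.34.

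The ABA list chosen by gene symbol, which holds the receptors together with synthesis and signalling genes, matched 18 identifiers, of which 7 met the limits on level. None of the 7 was a member, and none had leaf L of at least 1. The gene vp14 (GRMZM2G014392), which encodes the enzyme that makes the first committed precursor of ABA, was at 24.2 FPKM in drought leaf and 1.76 FPKM in control leaf, and at 3.46 FPKM in drought-labelled root and 3.75 FPKM in control-labelled root. It resembled the members in leaf and not in root.

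**Figure D2:**
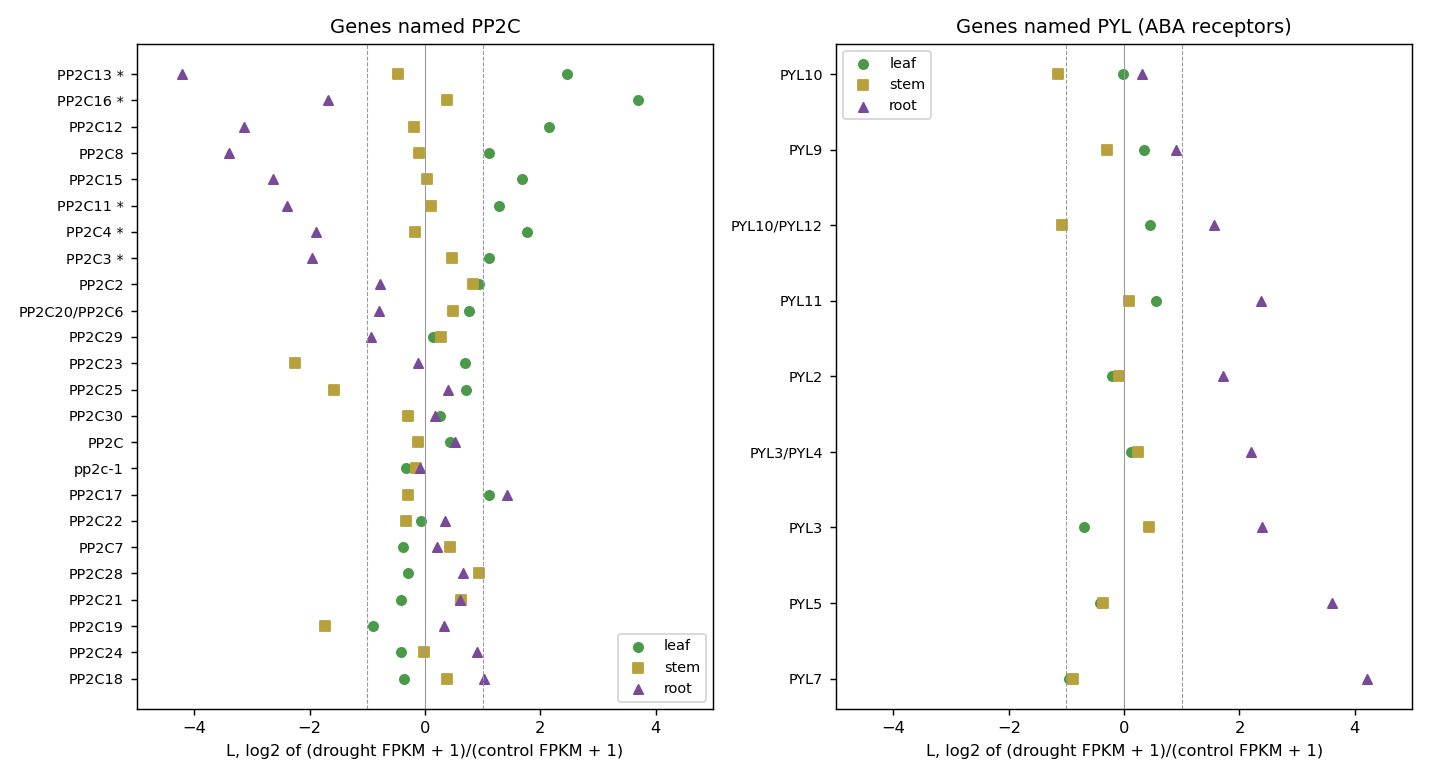
Log2 ratio (L) of drought over control in leaf, stem and root for the 24 PP2C genes (left) and 9 PYL receptor genes (right) above 0 FPKM in some library, ordered by leaf L minus root L, with members marked by an asterisk and dashed lines at L of -1 and 1. The top 8 phosphatases combine leaf L of at least 1 with root L of at most -1. All 9 receptors have root L above 0, as do most genes that met the limits on level (8 of 9 receptors with libraries rescaled to the same total).

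The transcription factor GBF1 (GRMZM2G011932), a bZIP protein that binds G-box sequences and was first described in maize cells short of oxygen, was a member. It was at 165 FPKM in drought leaf and 44.4 FPKM in control leaf, with L of 1.87. Its root levels were 12.7 FPKM in the drought-labelled library and 54.0 FPKM in the control-labelled library, with L of -2.01. In stem it was at 12.7 FPKM in drought and 10.5 FPKM in control, so stem stayed near the level of drought-labelled root. No gene of the transcription factor list by symbol prefix was a member, out of 93 that met the limits on level; GBF1 is not matched by its patterns.

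Enzymes of nitrogen and sugar metabolism were present with 1 named gene each. Asparagine synthetase makes asparagine, a compound in which plants store and move nitrogen. Its gene asn3 (GRMZM2G053669) was at 186 FPKM in drought leaf and 0.145 FPKM in control leaf, with L of 7.35, the largest leaf value of all members. In root it was at 3.18 FPKM in the drought-labelled library and 25.1 FPKM in the control-labelled library, and in stem at 0.200 FPKM in drought and 0.873 FPKM in control. Its relatives differed, since asn1 was at 50.3 FPKM in drought leaf and 46.2 FPKM in control leaf, and at 46.8 FPKM in drought-labelled root and 32.4 FPKM in control-labelled root. The gene asn2 stayed under 1 FPKM in leaf and root.

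Galactinol synthase carries out the first step towards the raffinose sugars, which build up in drying tissue. The gene gols2 (GRMZM5G872256, also named gols3 in the reference) was at 47.2 FPKM in drought leaf and 22.3 FPKM in control leaf, with L of 1.05, close to the threshold. Its root levels were 30.5 FPKM in the drought-labelled library and 214 FPKM in the control-labelled library, with L of -2.77. In stem it was at 79.0 FPKM in drought and 152 FPKM in control, with L of -0.94. This was the named member with the highest level in stem, and it stood near the stem limit of the rule.

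Genes for RNA splicing and membrane shape were present as well. RS2Z37B (GRMZM2G099317) encodes a splicing factor rich in serine and arginine. It was at 103 FPKM in drought leaf and 36.7 FPKM in control leaf, at 49.99 FPKM in drought-labelled root and 122 FPKM in control-labelled root, and at 25.1 FPKM in drought stem and 28.8 FPKM in control stem. The other 3 genes of the RS2Z type had L between 0.00 and 0.23 in leaf and between 0.13 and 0.59 in root, so RS2Z37B was the only one of the 4 past a threshold in either tissue.

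Reticulons are membrane proteins that shape the endoplasmic reticulum. The reticulon gene GRMZM2G142409 was at 154 FPKM in drought leaf and 69.5 FPKM in control leaf, and at 78.1 FPKM in drought-labelled root and 263 FPKM in control-labelled root. A second gene named reticulon, GRMZM2G064870, had the opposite signs. It was at 14.3 FPKM in drought leaf and 22.0 FPKM in control leaf, and at 28.3 FPKM in drought-labelled root and 13.0 FPKM in control-labelled root.

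Another pair of members has a short name only. The gene mtl2 (GRMZM2G402564) was at 22.1 FPKM in drought leaf and 0.118 FPKM in control leaf, the lowest control leaf value of all members. Without the pseudocount this was the second largest fold in leaf among the named members. By leaf L, at 4.37, it stood below asn3 and rab17. In root it was at 2.89 FPKM in the drought-labelled library and 13.5 FPKM in the control-labelled library, and it stayed under 1 FPKM in stem. The gene named USP (GRMZM2G119258) was at 86.3 FPKM in drought leaf and 27.3 FPKM in control leaf, and at 54.0 FPKM in drought-labelled root and 153 FPKM in control-labelled root.

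**Figure D3:**
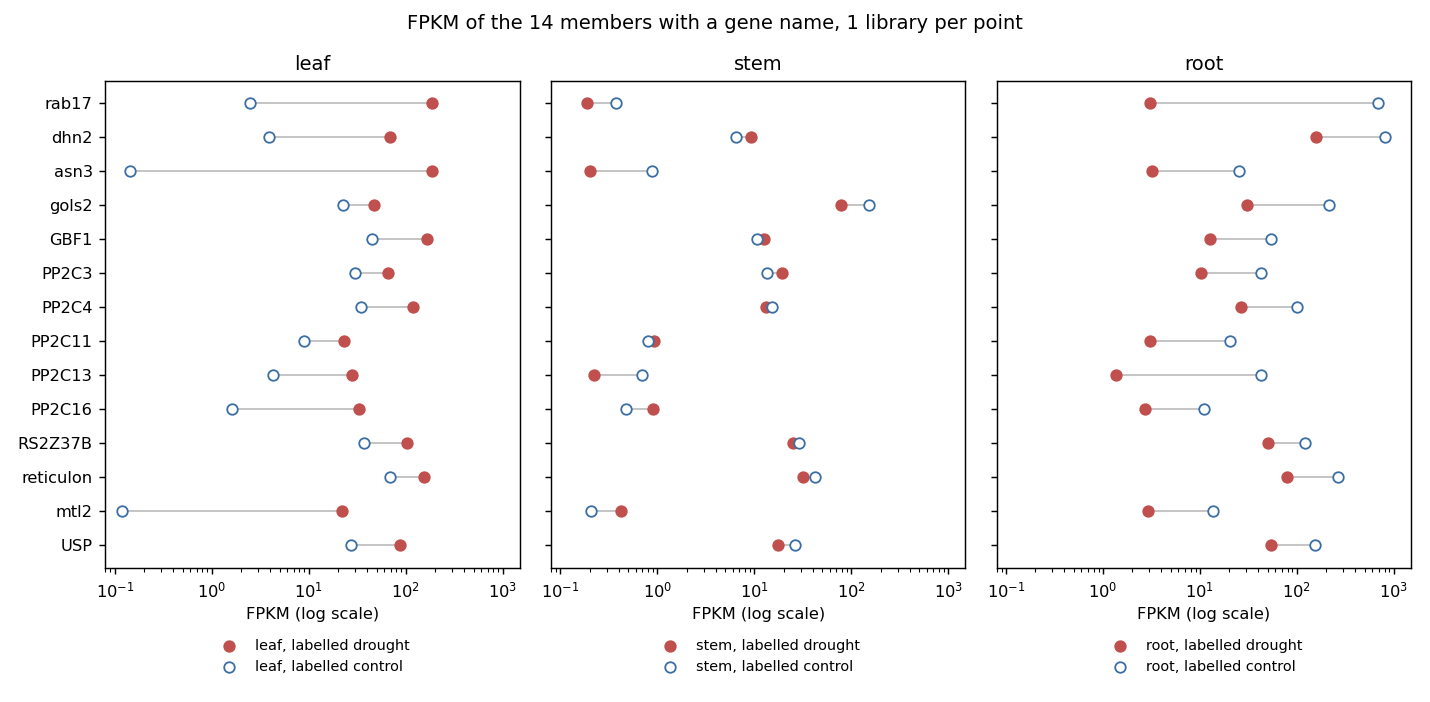
FPKM (log axis) of the 14 members with a gene name in leaf, stem and root, with 1 library per point, drought as filled red and control as open blue circles joined by a grey line. By the rule the drought point lies right of the control point in leaf and left of it in root, and in stem 6 of the 14 (rab17, asn3, mtl2, PP2C11, PP2C13 and PP2C16) lie under 1 FPKM in both libraries.

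The reference matched 52 of the 98 members (53.1%), against 72.2% of the 10828 genes that met the limits on level. It gave 14 of the members a gene name, so most members have no stated function. The largest leaf values after asn3 and rab17 belonged to GRMZM2G455440, GRMZM2G351330 and GRMZM2G150688. GRMZM2G455440 was at 31.5 FPKM in drought leaf and 0.124 FPKM in control leaf, and at 1.30 FPKM in drought-labelled root and 12.1 FPKM in control-labelled root. GRMZM2G150688 was at 115 FPKM in drought leaf and 3.80 FPKM in control leaf, and at 85.5 FPKM in drought-labelled root and 239 FPKM in control-labelled root. The 2 genes differ in that GRMZM2G150688 kept a high level in both root libraries.

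After rab17, the lowest root values belonged to GRMZM2G125813, GRMZM2G031033, GRMZM2G173685 and GRMZM2G161154. GRMZM2G125813 was at 0.902 FPKM in drought-labelled root and 139 FPKM in control-labelled root, and at 49.9 FPKM in drought leaf and 1.87 FPKM in control leaf. GRMZM2G031033 was at 1.14 FPKM in drought-labelled root and 126 FPKM in control-labelled root, and at 11.8 FPKM in drought leaf and 0.212 FPKM in control leaf. In both, the control-labelled root level was above that of each leaf and stem library. GRMZM2G161154 was abundant in leaf too, at 523 FPKM in drought leaf and 153 FPKM in control leaf, and at 5.32 FPKM in drought-labelled root and 171 FPKM in control-labelled root.

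The highest level in drought leaf belonged to GRMZM2G064136, at 1119 FPKM against 249.6 FPKM in control leaf. It was at 144 FPKM in drought-labelled root and 314 FPKM in control-labelled root. A further member, GRMZM2G120918, lies in the same reference gene and was at 409 FPKM in drought leaf and 79.6 FPKM in control leaf, and at 52.1 FPKM in drought-labelled root and 143 FPKM in control-labelled root. Since both identifiers match 1 reference gene, their values are not independent. The highest level in control-labelled root belonged to GRMZM2G020940, at 964 FPKM against 303 FPKM in drought-labelled root.

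In the gene order of the reference, of the 50 members with exactly 1 reference gene, 1 pair lay in neighbouring genes, GRMZM2G125813 and GRMZM2G425482. They differed in size of change, since GRMZM2G425482 was at 40.6 FPKM in drought-labelled root and 94.0 FPKM in control-labelled root.

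Stem showed no common direction. The rule kept stem L above -1 and set no upper limit. Over all 10828 genes, 6.65% had stem L of at least 1 and 6.46% had stem L of at most -1. The median stem L of the members was 0.019, against 0.094 for genes that met the limits on level with stem L above -1. Stem L was above 0 for 50 members and below 0 for 48, and for 66 members it lay between -0.5 and 0.5. With stem L of at least 1 there were 9 members of 98 (9.18%), against 7.11% of the genes above -1, so this share lies near that of other genes. The median member was at 6.95 FPKM in drought stem and 6.41 FPKM in control stem.

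Control stem lay below control leaf for 66 of 98 members (67.3%). Both stem libraries lay below drought leaf and control-labelled root, the libraries that the rule requires to be high, for 89 of 98. In both stem libraries, 13 members were under 1 FPKM. For these counts the share over the 10828 genes was not computed, so they are not read as a trait of the members. The median of the 10828 genes was 17.4 FPKM in control stem and 22.2 FPKM in control leaf. The members' summed FPKM was 1656 in drought stem and 1470 in control stem. All of these comparisons of level run across separately deposited tables.

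The exceptions in stem had no gene name. GRMZM2G701449 was at 53.1 FPKM in drought stem and 9.95 FPKM in control stem, at 22.1 FPKM in drought leaf and 2.89 FPKM in control leaf, and at 3.82 FPKM in drought-labelled root and 104 FPKM in control-labelled root. GRMZM2G173685 was at 129 FPKM in drought stem and 26.1 FPKM in control stem, at 71.7 FPKM in drought leaf and 24.2 FPKM in control leaf, and at 4.34 FPKM in drought-labelled root and 209 FPKM in control-labelled root. GRMZM2G075826 was at 54.3 FPKM in drought stem and 14.0 FPKM in control stem, at 51.7 FPKM in drought leaf and 9.19 FPKM in control leaf, and at 2.48 FPKM in drought-labelled root and 49.4 FPKM in control-labelled root. These genes stood higher in drought in leaf and stem and lower under the drought label in root, with the root change larger than that in leaf.

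**Figure D4:**
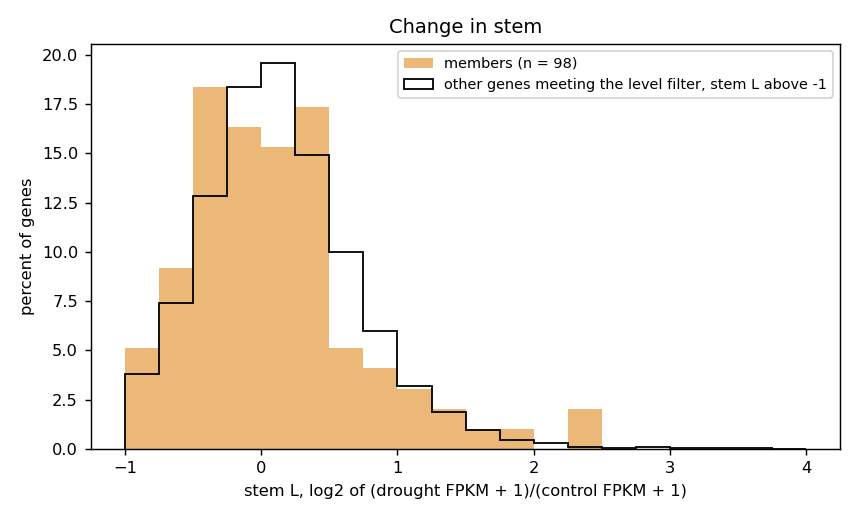
Share of genes in percent (vertical axis) by stem L, the log2 ratio of drought over control in stem (horizontal axis, steps of 0.25), for the 98 members (filled) and for the other genes that met the limits on level with stem L above -1 (outline, values of 4 and over in the last step). The members centre near 0, with a median of 0.019, and 9 of them lie at 1 or above.

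The nearest other groups differed in stem values without a test. Of the 324 genes with L of at least 1 in both leaf and root, 289 had stem L above -1, and 47 of these (16.3%) had stem L of at least 1. Of the 204 genes with the opposite pattern, 178 had stem L above -1, and 44 of these (24.7%) had stem L of at least 1. The members' share was 9.18%.

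Among the other lists fixed by gene symbol, few held members. The LEA and dehydrin list matched 7 identifiers, 1 of them a LEAFY relative matched by its letters only, and 2 of the 3 that met the limits on level were members. The list of nitrogen genes held 1 member of 11 (asn3), and the carbohydrate list 1 of 16 (gols2). The other 13 lists held none, among them heat shock genes (0 of 10), water channels (0 of 12), cell wall genes (0 of 19), defence genes (0 of 30), photosynthesis genes (0 of 2) and ribosome genes (0 of 27). At 0.905% of genes, a list of 30 would hold fewer than 1 member, so these counts of 0 carry little information.

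The thresholds cut through a continuous range. The lowest leaf values among the members were 1.002 for GRMZM2G444029 and 1.004 for GRMZM2G141252, and just outside stood GRMZM2G044503 at 0.998 with a root L of -2.05. In root GRMZM2G080725 was just inside at -1.01, and AC235543.1_FG003 just outside at -0.996 with a leaf L of 2.79. In stem GRMZM2G128114 was just inside at -0.94, and GRMZM2G086179 just outside at -1.01. On level, GRMZM2G340257 was kept at 10.4 FPKM in drought leaf, and GRMZM2G032905 was left out at 9.64 FPKM. Without the limits on level, the conditions on L were met by 305 genes, of which 109 were at 0 in at least 1 leaf or root library and 98 were above 0 but under 10 FPKM in the higher leaf or root library.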

How the data were processed

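For each of the 3 tissues, a table gave drought and control values per gene. Per the labels and the paper's methods, the authors mapped reads to the maize B73 genome with TopHat and processed them with Cufflinks and Cuffdiff. The deposited values were taken as FPKM, normalized within each table, which is inferred from the separate tables. Versions and the genome release are not given in the sources used here. The authors' column of log2 ratios holds their own comparison and was not used, and 0 columns belonged to no sample. Read counts per gene were not used here, so counting error is unknown, and no interval is given. The paper's supplement lists total and aligned reads for each library. The mapping rate listed there was lowest for the drought-labelled root library.

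Ratios were computed as L with a pseudocount of 1 FPKM, which understates changes of genes of low level. With 1 library per tissue and treatment, no test was made and no p-value computed. Gene names came from RefSeq for the assembly Zm-B73-REFERENCE-NAM-5.0, whose synonyms matched 18778 identifiers (17.1%). Its gene order was used to find neighbours, its coordinates are not given, and no sequences were shown. The members and lists were chosen with earlier results of these data known. Genes eligible to be named were members with a gene symbol in the reference or on a list, the 5 most extreme members for L in each tissue and for FPKM in drought leaf and control root, and the 3 genes on either side of each threshold, of which some are printed. Other family genes and the neighbour GRMZM2G425482 were named after their values were seen. The PP2C, PYL and dehydrin sets were gathered after the values were seen. Alternatives were other pseudocounts, limits on level, thresholds and scalings, and no stem limit. The rule was tested on simulated data. The software was matplotlib 3.10.9, scipy 1.17.1, pandas 2.3.3 and numpy 2.4.6 under Python 3.11.15.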

Additional observations from a re-analysis of the deposited data

Results flagged for a closer look

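The 98 members moved in opposite directions in leaf and root by the rule, with 1 library per tissue and treatment, so the difference between the tissues was not tested. The same opposite directions were seen in some genes of the PP2C and LEA sets that the rule left out, and there too the difference was not tested. RAB15, dehydrin7, PP2C17 and PP2C18 did not show them. With members included, leaf L was above 0 and root L below 0 for 12 of 24 PP2C genes and 4 of 8 dehydrin and LEA genes. That share was not computed over all genes. PP2C2 and PP2C6 lay inside both thresholds. Leaf L minus root L was 5.29 for PP2C12, 4.51 for PP2C8, 4.32 for PP2C15, 1.71 for PP2C2 and 1.56 for PP2C6 (also named PP2C20). It was 6.62 for mlg3, which was listed at 0 in control leaf, and 3.31 for Lea14A.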

How the results depend on the processing

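No paired analysis was possible because each tissue and treatment has 1 library. The number of members was 96 with a pseudocount of 0.1 FPKM and 97 with 0.01 FPKM, and in each case 90 were among the 98. It was 143 after centring on the tissue medians, 123 without the stem limit and 109 with genes at 0 kept, an alternative chosen after seeing the data. It was 196 with the level limit at 1 FPKM or with no such limit, 43 at 30 FPKM, 49 with L of 1.5, 27 with L of 2 and 379 with libraries rescaled to the same total, of which 94 were among the 98. Leaf genes past the threshold (832) numbered 1660 at 1 FPKM, 1795 with no limit, 411 at 30 FPKM, 509 at L of 1.5, 339 at L of 2 and 1378 rescaled. Root genes (654) numbered 1666, 1838, 200, 282 and 152 under the same limits, 1071 centred and 2942 rescaled. The rescaling moved the root median of the genes that met the limits on level to -0.34 and the leaf median to 0.17. The members' median stem L (0.019) was 0.16 with either smaller pseudocount, -0.081 with the limit at 1 FPKM, none or 30 FPKM, 0.092 at L of 1.5 or 2, -0.023 centred, -0.052 rescaled and -0.20 without the stem limit. The leaf and root values of the 14 named members, 112 values under other pseudocounts or scalings, kept their direction, and their size was at least 1.07. Not all of these members stayed above the stem limit of -1. With pseudocounts of 0.1 and 0.01 FPKM, stem L was -1.70 and -2.07 for asn3, and -1.29 and -1.59 for PP2C13. With libraries rescaled to the same total, stem L was -1.02 for gols2. Under those settings these genes were not members. The limits that depth sets for single genes are unknown, since FPKM holds no counts.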
